A study of Mus musculus with 2 samples.

Results

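The 7 long noncoding RNAs described here, Malat1, Neat1, Meg3, Rian, Mirg, H19 and Kcnq1ot1, are RNAs that work in the nucleus or come from imprinted domains. They were chosen by symbol, and each matched 1 of the 34285 gene rows counted in both single-cell libraries. Malat1 had been seen to be lower in every cell class of the Lipo-Clo library when the set was put together, so its levels and ratios are a description and carry no test.

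Both libraries were 10x Genomics single-cell RNA libraries of first mandibular molars with the tissue around them, taken from C57BL/6J mice at PN15.5 (postnatal day). The Lipo-Clo mice received clodronate liposomes, which kill the phagocytes that take them up, at 40 μg/g by intraperitoneal injection. Injections were made at PN3.5 and PN6.5 and again at PN9.5 and PN12.5, and the Lipo-PBS mice received vehicle liposomes on the same days. Each condition had 1 library, both sexes were used, the number of mice in a library is not given in the sources used here, and liposomes reach phagocytes of the whole animal, not of the tooth alone. The libraries held 9362 (Lipo-Clo) and 9653 (Lipo-PBS) cell barcodes, with 31053404 and 30537834 unique molecular identifiers (UMIs, each standing for 1 captured RNA molecule), and 8254 and 8261 cells were kept. The 2 libraries shared 30 barcodes.

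Malat1 gathers at nuclear speckles, the stores of splicing factors, and Neat1 is the RNA scaffold on which the paraspeckle, another nuclear body, is built. Meg3, Rian and Mirg lie one after another in the Dlk1-Dio3 domain and are expressed from the chromosome inherited from the mother. Rian carries many small nucleolar RNAs and Mirg many microRNAs. H19, also maternal, is the partner of the growth factor gene Igf2, and the paternally expressed Kcnq1ot1 runs antisense to Kcnq1 and keeps its neighbours silent on the same chromosome. H19 and the Dlk1-Dio3 RNAs are known to be abundant in the embryo and to decline after birth.

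In the GENCODE M21 annotation of GRCm38, Malat1 (ENSMUSG00000092341) lies at chr19:5795690-5802672 on the minus strand and Neat1 (ENSMUSG00000092274) at chr19:5824708-5845478 on the same strand, 22.0 kb apart. Meg3 (ENSMUSG00000021268, chr12:109541001-109571726), Rian (ENSMUSG00000097451, chr12:109603940-109661716) and Mirg (ENSMUSG00000097391, chr12:109729764-109749460) follow each other on the plus strand, with gaps of 32.2 and 68.0 kb. H19 (ENSMUSG00000000031, chr7:142575529-142578143) and Kcnq1ot1 (ENSMUSG00000101609, chr7:143203458-143296549) are both on the minus strand, 625 kb apart. Kcnq1ot1 is a single exon of 93.1 kb inside Kcnq1, which is read from the other strand. The libraries themselves were aligned to GRCm39, so these positions were joined by gene identifier and no read position was used.

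A library primed on poly(A) starts from a run of A bases, at the tail of a transcript or inside it, and the priming used here is not given in the sources used here. The ends of the transcripts are therefore shown, as the last 60 bases of the annotated RNA read 5′ to 3′ from GRCm38, with the hexamer AATAAA, which directs cleavage and tailing, in capitals. Of 141515 annotated transcripts, 27.2% had this hexamer on their own strand in their last 60 bases. Of the members' transcripts it was in 3 of 4 of Malat1, 1 of 4 of Neat1, 4 of 11 of Meg3, 3 of 20 of Rian, 7 of 12 of Mirg, 4 of 7 of H19 and the only one of Kcnq1ot1. Apart from Neat1-201, the transcripts shown are ones that hold it.
Malat1-201: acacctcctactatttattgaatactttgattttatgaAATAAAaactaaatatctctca
Neat1-202: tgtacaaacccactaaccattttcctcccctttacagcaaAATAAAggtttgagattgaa
Neat1-201: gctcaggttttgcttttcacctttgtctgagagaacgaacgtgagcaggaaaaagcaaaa
Meg3-207: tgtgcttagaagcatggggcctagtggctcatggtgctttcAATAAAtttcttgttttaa
Rian-202: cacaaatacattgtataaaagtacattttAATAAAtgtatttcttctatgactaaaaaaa
H19-202: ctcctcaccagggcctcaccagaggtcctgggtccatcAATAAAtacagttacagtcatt
Kcnq1ot1-201: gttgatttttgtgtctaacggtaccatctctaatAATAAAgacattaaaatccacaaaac
The hexamer was present in the short Neat1-202 (3004 bases) and absent from this window of the long Neat1-201 (20771 bases), the form that builds paraspeckles. Transcripts of other members held longer runs of A, of 41 in Kcnq1ot1-201, 16 in Meg3-209 and 15 in Rian-201. These ended 23487, 14113 and 2766 bases from the 3′ end. Malat1-201 (6983 bases) held a run of 12 A that ended 298 bases from its 3′ end, shown in capitals within bases 6650 to 6709.
Malat1-201, bases 6650 to 6709: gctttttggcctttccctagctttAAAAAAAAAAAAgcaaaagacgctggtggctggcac
The counts are per gene and do not tell these forms apart.

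Of the imprinted members, Meg3, Rian, Mirg and H19 are also precursors of microRNAs. In RefSeq (GRCm38.p6), 37 mature microRNAs lay inside them, 26 in Mirg, 6 in Rian, 3 in Meg3 and 2 in H19, with 36 different seeds (bases 2 to 8, in capitals below). Those of H19, 1 each of Meg3 and Rian, and the only pair with a shared seed, both from Mirg, are shown as examples of these microRNA products.
H19, mmu-miR-675-5p: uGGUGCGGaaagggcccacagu
H19, mmu-miR-675-3p: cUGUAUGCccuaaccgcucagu
Meg3, mmu-miR-770-5p: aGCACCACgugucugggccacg
Rian, mmu-miR-370-3p: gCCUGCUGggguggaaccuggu
Mirg, mmu-miR-453: aGGUUGCCucauagugagcuugca
Mirg, mmu-miR-496a-5p: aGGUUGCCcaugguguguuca
The libraries measured the long RNAs, not these products.

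Cells were clustered with the 7 members left out of the clustering genes, and clusters were named from marker genes, so that each name below stands for cells that look like the named type. There were 12 named classes. Dental mesenchyme was the largest (4108 Lipo-Clo and 3928 Lipo-PBS cells), followed by epithelium (846 and 792), and macrophages numbered 127 and 175. Levels are given as CPM, a gene's UMIs scaled to the UMIs of all genes in the class with the usual factor of 1000000, with exact Poisson intervals at the 95% level. These intervals cover counting error only, and with 1 library per condition no difference could be set against the spread between animals. Levels of different genes are not compared with each other, since length and capture differ. Where 2 values stand together, the first is of Lipo-Clo and the second of Lipo-PBS, and a log2 ratio above 0 means a higher level in Lipo-Clo.

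Malat1 was highest in perivascular cells of both libraries, at 21907 CPM (21578 to 22240) and 29187 CPM (28903 to 29472). In Lipo-PBS, glia (22965 CPM), epithelium (21479 CPM), endothelium (20899 CPM) and dental mesenchyme (18919 CPM) followed. The blood and dividing classes lay lower, from cycling cells (13626 CPM) through monocytes (12548 CPM), T or NK cells (11844 CPM), B cells (11499 CPM), neutrophils (10935 CPM) and macrophages (10484 CPM) to erythroid cells (8108 CPM). In this library every class of blood cells stood below the other classes. Haemoglobin RNA made up 45.6% (Lipo-Clo) and 45.8% (Lipo-PBS) of erythroid UMIs, which lowers the CPM of every other gene in that class. The last place of erythroid cells holds for totals that include haemoglobin. Of the 11 neighbouring pairs in this order, 3 had overlapping intervals, namely T or NK cells with B cells, B cells with neutrophils and neutrophils with macrophages. In Lipo-Clo the order began with perivascular cells, epithelium (20801 CPM) and endothelium (16366 CPM) and ended with monocytes at 2825 CPM (2759 to 2892).

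**Figure D1:**
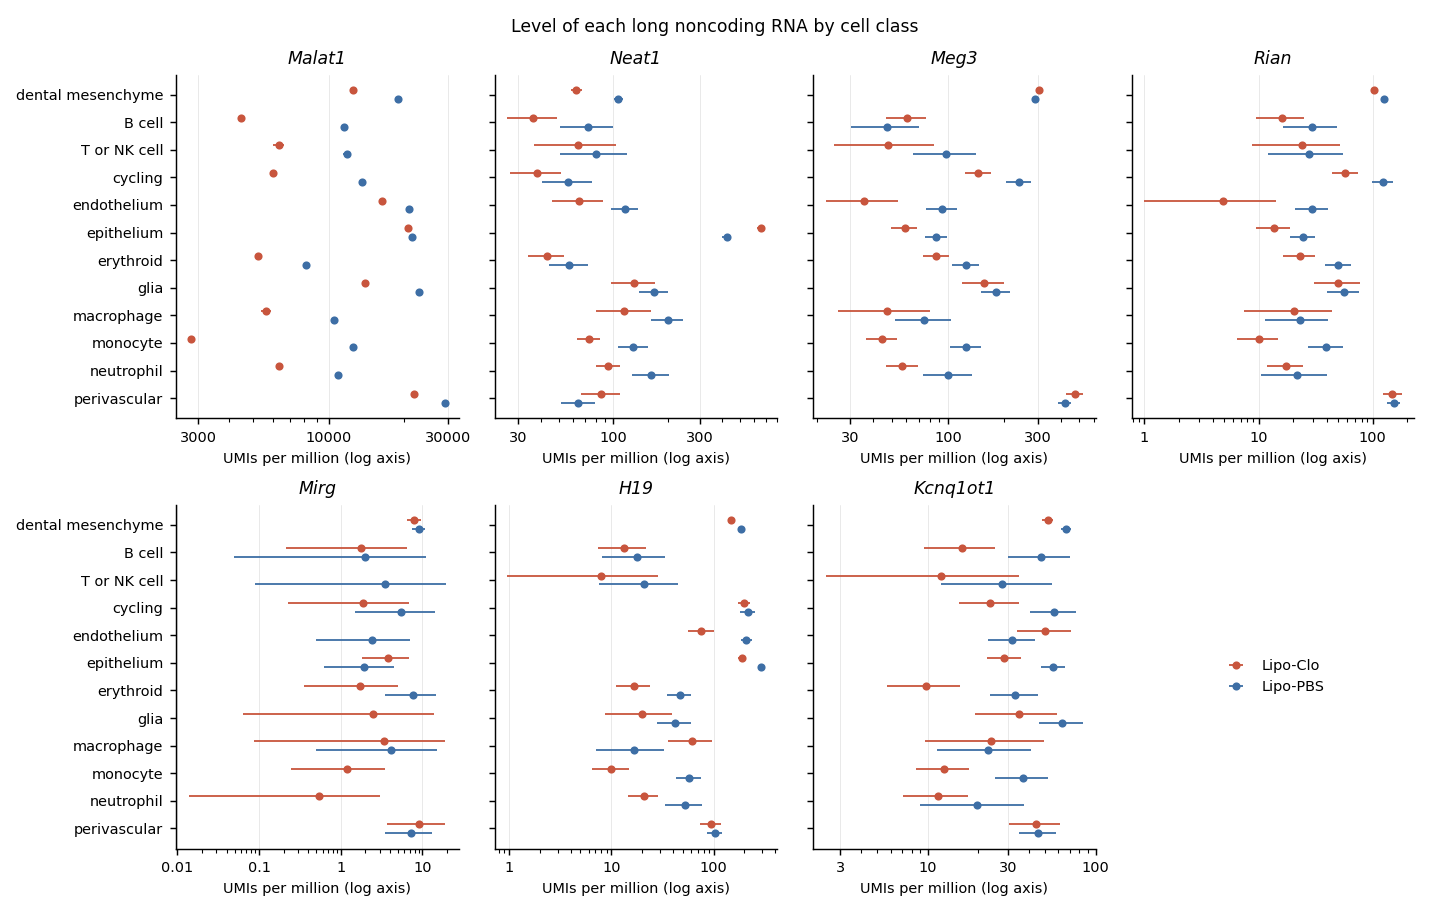
Level of each member by cell class, in CPM on a log axis, with exact 95% Poisson intervals as bars; red points are Lipo-Clo and blue points Lipo-PBS, and classes with no UMI have no point. Malat1 is lower in the Lipo-Clo library in all 12 classes, Neat1 stands out in epithelium, and Meg3 and Rian in dental mesenchyme and perivascular cells.

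In dental mesenchyme, Malat1 made up 12505 CPM (12445 to 12565) and 18919 CPM (18844 to 18995), and the log2 ratio was -0.60 (-0.61 to -0.59). All 12 classes were lower in Lipo-Clo, 9 of them by at least 1.5-fold, and the interval lay below 0 in each. The log2 ratio was nearest to 0 in epithelium (-0.05), endothelium (-0.35) and perivascular cells (-0.41), and farthest in monocytes (-2.15), B cells (-1.36) and cycling cells (-1.18). The monocyte class was 1 cluster that also carried markers of neutrophils, macrophages, dendritic cells, osteoclasts and cycling cells. Macrophages, the cells the liposomes are meant to remove, stood at 5630 and 10484 CPM, with a log2 ratio of -0.90 (-0.98 to -0.82). Class ratios depended on the clustering. With each library clustered on its own, macrophages were at -1.81 and endothelium at -0.68, while glia hardly moved (-0.72 to -0.68). For epithelium, whose median cell had a higher Malat1 share in Lipo-Clo (2.37% against 2.16% of its UMIs), the direction was not fixed. Its log2 ratio was 0.01 with edgeR's TMM scaling and also with cells thinned to 1000 UMIs. Thinned values here and below leave out cells with fewer than 1000 UMIs, in dental mesenchyme 380 and 269 cells.

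Over all genes with at least 20 UMIs in dental mesenchyme, 9.37% were at least 1.5-fold lower in Lipo-Clo, 5.52% at least 1.5-fold higher, and 51.9% lower by any amount. The share at least 1.5-fold lower was 10.5% in perivascular cells, 13.7% in endothelium, 15.8% in epithelium, 16.8% in cycling cells, 17.4% in glia, 19.4% in T or NK cells, 20.5% in B cells, 20.9% in macrophages, 27.5% in erythroid cells, 33.7% in neutrophils and 36.4% in monocytes. The blood classes thus had many lower genes, of which Malat1 was 1. The share lower by any amount, in the same order, was 46.2%, 46.6%, 55.6%, 48.6%, 52.8%, 48.5%, 55%, 53.4%, 59.9%, 69.1% and 61.7%. Among the genes tested in dental mesenchyme, 8.99% had a lower ratio than Malat1, and in epithelium 50.9% had one.

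**Figure D2:**
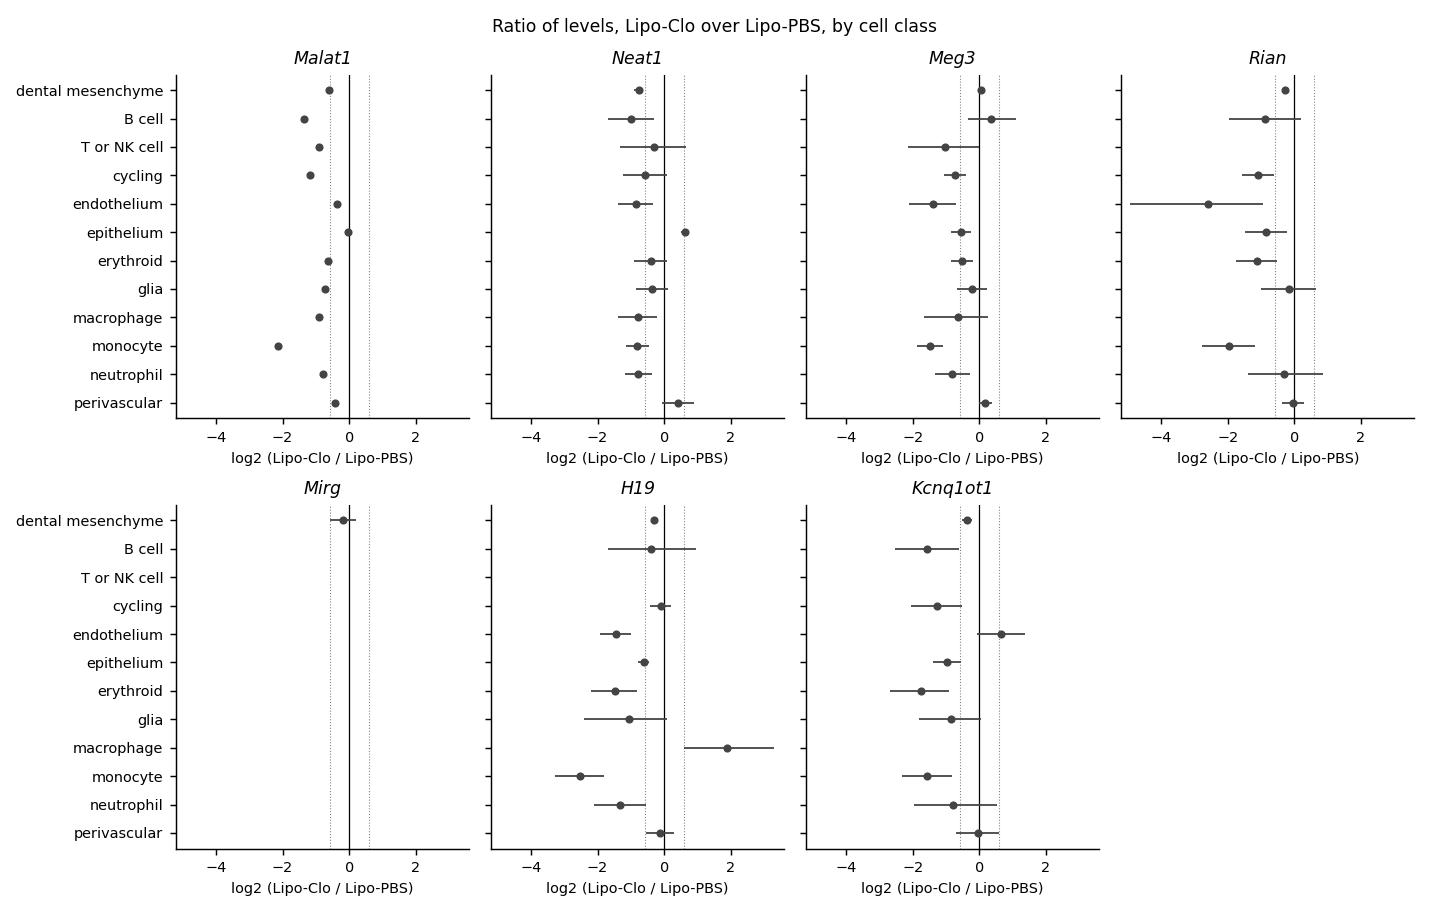
Log2 ratio of Lipo-Clo over Lipo-PBS for each member by cell class, with exact 95% intervals, for classes with at least 20 UMIs over both libraries and a UMI in each; dotted lines mark 1.5-fold either way. All 12 Malat1 points lie left of 0, while Neat1 in epithelium and H19 in macrophages lie right of it.

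Per cell, the difference in dental mesenchyme lay mainly in cells with little Malat1. Malat1 took 0.95% of the UMIs of the median mesenchymal cell in Lipo-Clo and 1.74% in Lipo-PBS, and at the 10th percentile 0.083% and 0.56%. At the 90th percentile the order was turned, with 4.94% in Lipo-Clo and 4.59% in Lipo-PBS. Cells without a Malat1 UMI numbered 108 (2.63%) and 14 (0.36%), and after thinning to 1000 UMIs a Malat1 UMI was found in 89.8% (88.7 to 90.7, exact Clopper-Pearson) and 99.5% (99.2 to 99.7) of 3728 and 3659 cells. In monocytes the median cell had 0.16% and 0.85%, and the 90th percentile was lower in Lipo-Clo too (1.05% and 2.91%). Besides dental mesenchyme, the 90th percentile was higher in Lipo-Clo only in glia (5.65% and 5.50%) and perivascular cells (7.55% and 7.15%). Barcodes with fewer than 200 genes, whose UMIs were 94.0% and 94.4% haemoglobin RNA, were left out. Malat1 stood there at 339 and 390 CPM.

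**Figure D3:**
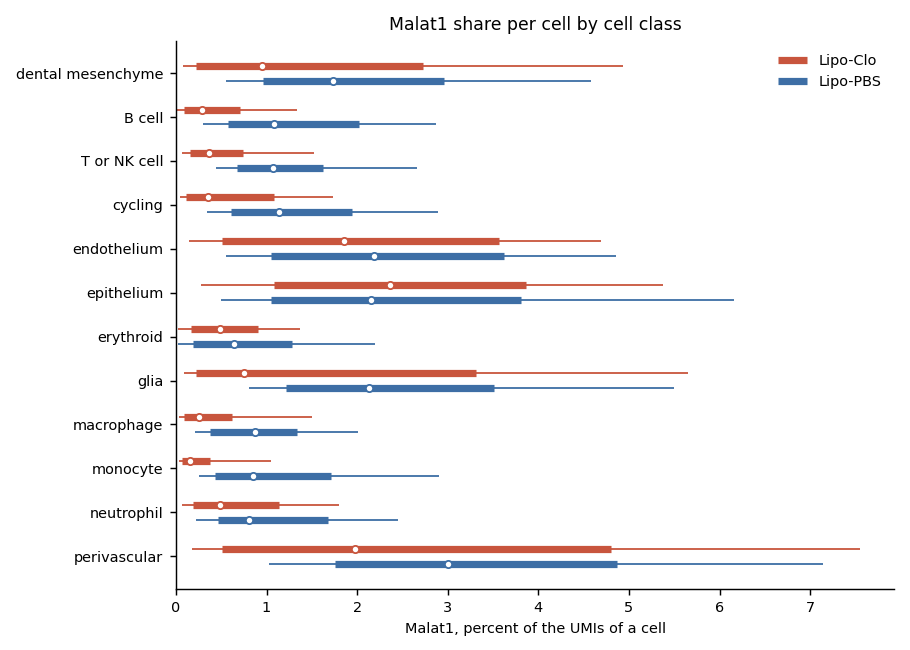
Malat1 as a percentage of all UMIs of a cell, by class and library; white points are medians over cells, thick bars the middle 50% of cells and thin lines the 10th to 90th percentile. In dental mesenchyme the medians are 0.95% (Lipo-Clo) and 1.74% (Lipo-PBS), while the upper ends of the thin lines lie at 4.94% and 4.59%.

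The Malat1 level moved with features of the cells that also differed between the libraries. Transcripts made in the mitochondrion were 0.39% of mesenchymal UMIs in Lipo-Clo and 1.64% in Lipo-PBS, and all 13 mitochondrial mRNAs were at least 1.5-fold lower in Lipo-Clo. With mesenchymal cells sorted by this share, Malat1 in Lipo-Clo went from 6925 CPM at or under 0.1% through 9053, 15614 and 29302 CPM to 42528 CPM above 3%. In Lipo-PBS it went from 10170 CPM, in only 7 cells, through 10839, 15223 and 18983 CPM to 32849 CPM. Within these bins the log2 ratio was -0.55, -0.26, 0.04, 0.63 and 0.37. With the bins given equal weights in the 2 libraries, the mesenchymal log2 ratio was 0.32, above 0, where it was -0.60 without weighting.

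Sorted by UMIs per cell, Malat1 was highest in the poorest cells, at 39864 (Lipo-Clo) and 34794 CPM (Lipo-PBS) under 1000 UMIs, and lowest in cells with 8000 UMIs or more, at 7108 and 13306 CPM. The log2 ratio was 0.20 under 1000 UMIs, -0.63 between 2000 and 4000 and -0.94 between 4000 and 8000. With the mixture of these bins of UMIs per cell held equal in the 2 libraries, the mesenchymal log2 ratio was -0.60, as without weighting. The part of the mitochondrial share and of cell depth in the Malat1 difference was not tested.

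**Figure D4:**
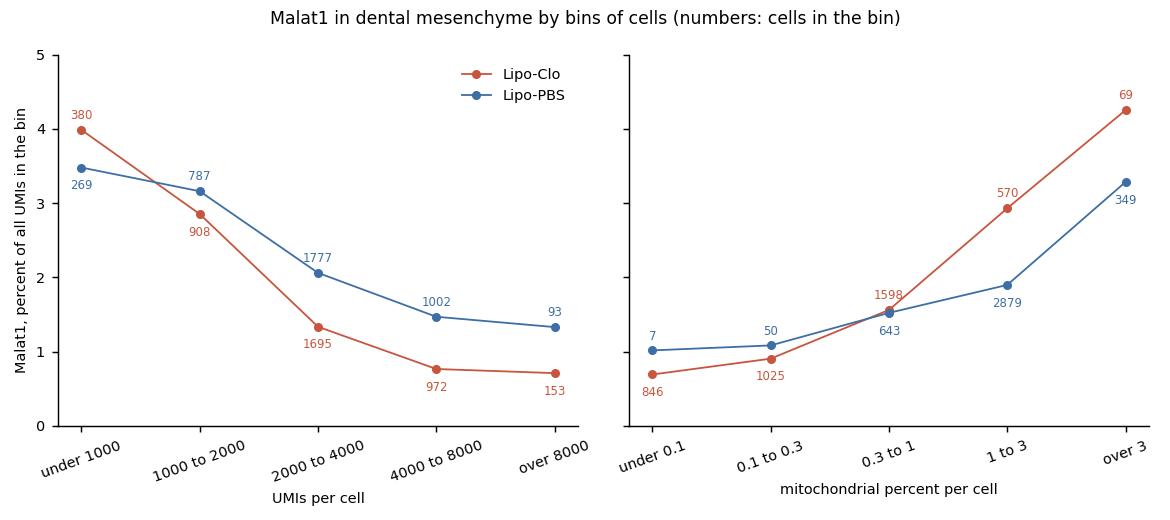
Malat1 as a percentage of all UMIs of the mesenchymal cells in each bin, by UMIs per cell (left) and by the mitochondrial percentage of the cell (right); the number beside each point is the number of cells. Malat1 goes down with UMIs per cell and up with the mitochondrial percentage in both libraries, and the bin at or under 0.1% holds 846 Lipo-Clo cells but 7 Lipo-PBS cells.

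RNA of genes typical of other cells differed as well. Haemoglobin RNA, which mesenchymal cells are not known to make, was 2.29% of their UMIs in Lipo-Clo and 4.99% in Lipo-PBS. In monocytes the collagen gene Col1a1, a mesenchymal transcript, stood at 3325 and 13723 CPM, a log2 ratio of -2.05. The neutrophil and monocyte gene S100a8 stood there at 14387 and 3355 CPM. Whether any of these UMIs were carried over from other cells was not tested, nor was their part in the monocyte result. Scaling by TMM moved all ratios by 0.31 in neutrophils, 0.25 in monocytes and 0.17 in erythroid cells and by under 0.1 in the other classes, and left Malat1 lower in all but epithelium.

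Dental mesenchyme was divided again into 11 states, and the highest Malat1 level among them was 6.83 (Lipo-Clo) and 3.70 times (Lipo-PBS) the lowest, beside 7.75 and 3.6 times among the classes. The lowest class in Lipo-PBS was the erythroid one, whose totals are rich in haemoglobin RNA. A papilla or pulp state led by Ctnnd2 had 40181 and 44853 CPM, and its median cell spent 5.10% and 5.14% of its UMIs on Malat1. The median cell of this state had 1371 and 1616 UMIs, against 2784 and 2935.5 in all dental mesenchyme. Mitochondrial transcripts were 0.69% and 2.24% of its UMIs, against 0.39% and 1.64%. The part of these features in the Malat1 level of the state was not tested. This state held 498 of 4108 mesenchymal cells in Lipo-Clo and 265 of 3928 in Lipo-PBS. A periodontal ligament state led by Pappa2 was lowest, at 5882 and 12111 CPM. Malat1 was lower in Lipo-Clo in 10 of 11 states, by at least 1.5-fold in 6. The 6 were the 4 periodontal ligament, follicle and fibroblast states led by Pappa2, Itgbl1, Dio2 and Clec3b, the Ccl19 fibroblast state and the unnamed Pcp4 state, with log2 ratios between -1.16 and -0.73. The papilla states led by Ctnnd2 and Cntn6 had -0.16 and -0.19, the Ibsp-led osteoblast or cementoblast state -0.37 and the Dspp-led state -0.44. The Meox2 fibroblast state, with 14 and 26 cells, was higher (0.31).

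Of all genes tested in a state, those at least 1.5-fold lower were 8.4% in the Ibsp, 9.45% in the Cntn6, 11.3% in the Dspp, 11.7% in the Ctnnd2, 12.4% in the Pappa2, 14.2% in the Pcp4, 15.4% in both the Clec3b and the Dio2, 18.3% in the Itgbl1, 20.4% in the Ccl19 and 25% in the Meox2 state. Those lower by any amount were 48.4%, 47.5%, 48.5%, 50.5%, 49.3%, 54.2%, 56.1% (Clec3b), 53.2% (Dio2), 56.9%, 50.3% and 55.3% in this order.

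**Figure D5:**
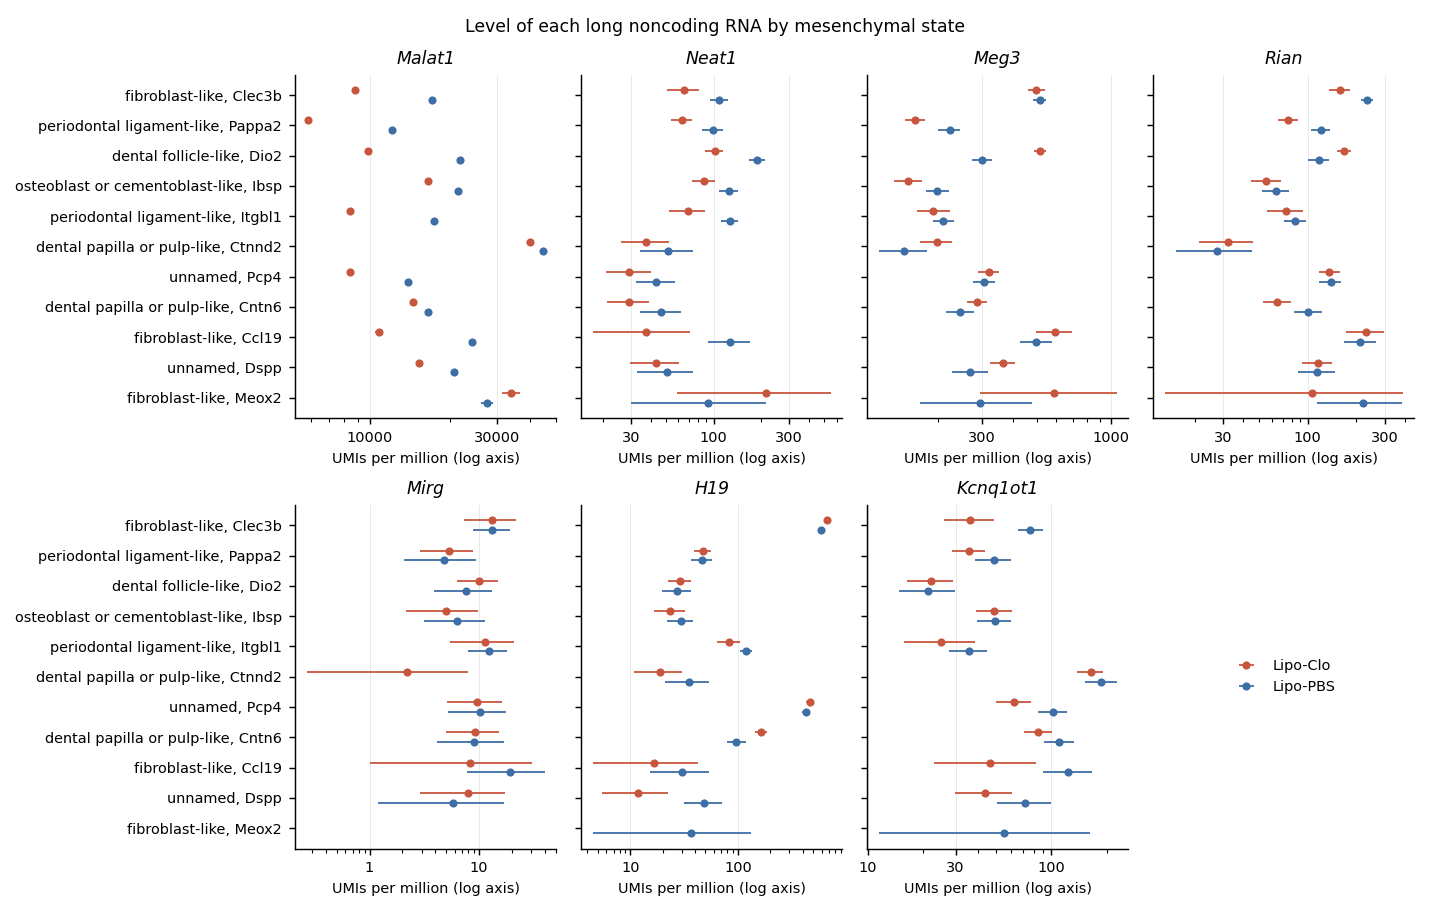
Level of each member by mesenchymal state, named by type and leading gene, in CPM on a log axis with exact 95% Poisson intervals; red is Lipo-Clo and blue Lipo-PBS, and states with no UMI have no point. Malat1 and Kcnq1ot1 are highest in the Ctnnd2 state, H19 in the Clec3b and Pcp4 states, and Meg3 differs between the libraries in the Dio2 state (516 and 301 CPM).

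Neat1 was found in every class and was highest in epithelium in both libraries. In epithelium it stood at 652 CPM (621 to 683) and 422 CPM (398 to 448), and no other class reached 200 CPM. After thinning to 1000 UMIs, 45.3% and 30.2% of epithelial cells had a Neat1 UMI, against 7.24% and 10.5% of mesenchymal and 2.26% and 3.85% of cycling cells. Below epithelium, neighbouring classes hardly separated, with 10 of 11 neighbouring pairs overlapping in Lipo-PBS. In that library macrophages (199 CPM), glia (167 CPM) and neutrophils (161 CPM) came next. Classes farther apart in this order did differ, with dental mesenchyme at 107 CPM on 1378 UMIs and cycling cells lowest, at 56.6 CPM on 41 UMIs.

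Within the epithelium, Neat1 differed between clusters. The cluster led by Amelx, Klk4 and Ambn, genes of enamel-forming ameloblasts, had 940 and 810 CPM. The cluster led by the keratin Krt15 had 186 and 242 CPM, and that led by the desmosomal cadherin Dsc3 103 and 113 CPM. The epithelial log2 ratio was 0.63 (0.52 to 0.74), but 0.22 in the Amelx cluster, -0.38 in the Krt15 cluster and -0.14 in the Dsc3 cluster. The Amelx cluster held 605 of 846 epithelial cells in Lipo-Clo and 335 of 792 in Lipo-PBS, where the Krt15 cluster was the largest (383 cells).

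Outside epithelium and perivascular cells, Neat1 was lower in Lipo-Clo. Dental mesenchyme had 62.7 CPM (58.5 to 67.1) and 107 CPM, or -0.77 (-0.90 to -0.65) as a log2 ratio, and 5.54% of the genes tested there had a lower ratio. Of the 12 classes 10 were lower, 6 with an interval below 0. Macrophages had 115 and 199 CPM (-0.79) and monocytes 73.4 and 129 CPM (-0.81). All 10 mesenchymal states with at least 20 UMIs were lower, from -1.75 in the Ccl19 state to -0.22 in the Dspp state, and the follicle state led by Dio2 had the highest counted level among them (101 and 189 CPM). With the mixture of mitochondrial bins held equal, the mesenchymal ratio of Neat1 also turned, to 0.41.

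Meg3 marked the perivascular and mesenchymal classes. Perivascular cells had 473 and 420 CPM and dental mesenchyme 304 and 293 CPM. Glia (155 and 180 CPM) and cycling cells (144 and 239 CPM) followed. In the other 8 classes it stood between 35.6 and 124 CPM. The share of cells with a UMI after thinning was 22.3% and 23.1% in mesenchyme, 25.2% and 28.0% in perivascular cells, and 4.10% and 6.80% in neutrophils, which are not known to make Meg3. Whether the neutrophil share is background from free RNA was not tested.

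The log2 ratio of Meg3 was 0.06 (-0.01 to 0.12) in dental mesenchyme and 0.17 (-0.02 to 0.37) in perivascular cells, so in the classes where it was high the difference was within counting error. With equal weights of the mitochondrial bins the mesenchymal ratio of Meg3 was 0.53, and 0.66 without the lowest bin, and that of Rian below was -0.09 and -0.29. Meg3 was lower in 9 of the 12 Lipo-Clo classes, most in monocytes (-1.48) and endothelium (-1.38). By state, fibroblasts led by Ccl19 had 593 and 498 CPM of Meg3 and those led by Clec3b 500 and 514 CPM. The follicle state led by Dio2 had 516 and 301 CPM, with a log2 ratio of 0.78 (0.62 to 0.93). The ligament state led by Pappa2 went the other way, with 161 and 222 CPM (-0.47, -0.67 to -0.26), as did the Ibsp state with 151 and 198 CPM (-0.40). Of the 11 states, 7 were higher and 4 lower. The interval lay above 0 in 3, the Dio2, Ctnnd2 (0.45) and Dspp (0.44) states, and below 0 in 2, the Pappa2 and Ibsp states.

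Rian followed Meg3 across classes. It was highest in perivascular cells (149 and 153 CPM) and dental mesenchyme (103 and 125 CPM), and between 4.85 and 57.6 CPM elsewhere except in Lipo-PBS cycling cells (123 CPM). Over the 24 sums of class and library, log2(CPM + 1) of Meg3 and Rian had a Pearson correlation of 0.94, which is the highest for either gene among 9327 genes. These points share libraries, depth and any carried-over RNA, so the value is a description. The next genes most like Meg3 were Gpc6 (0.92) and Plac9 (0.91), and those most like Rian were Col6a1 (0.94) and Col6a2 (0.93).

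The pair was also read in single cells. After thinning, Rian was found in 17.2% (14.7 to 20) of Lipo-Clo mesenchymal cells with a Meg3 UMI and 7.18% (6.26 to 8.18) of those without, and in 21.5% and 8.93% in Lipo-PBS. Perivascular cells had 25% and 7.56% in Lipo-Clo and 20% and 10.5% in Lipo-PBS. H19, on another chromosome, leaned the same way with Meg3 in mesenchyme. It was found in 9.88% of cells with a Meg3 UMI and 6.83% of those without in Lipo-Clo, and in 13.8% and 8.14% in Lipo-PBS. These shares pool all cells of a class, over its states.

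For each 100 Meg3 UMIs, dental mesenchyme held 33.9 Rian UMIs in Lipo-Clo and 42.7 in Lipo-PBS. The log2 ratio of Rian in dental mesenchyme was -0.27 (-0.38 to -0.17). By state the direction again differed, with 169 and 117 CPM (0.52, 0.27 to 0.78) in the Dio2 state and 75.7 and 120 CPM (-0.67, -0.96 to -0.38) in the Pappa2 state. All 10 classes with at least 20 UMIs were lower, 6 with an interval below 0.

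Mirg was close to the limit of these libraries, with 107 and 116 UMIs in all of dental mesenchyme (7.97 and 9.0 CPM) and 7 and 10 in perivascular cells (9.08 and 7.21 CPM). Its mesenchymal log2 ratio was -0.18 (-0.57 to 0.21), a difference not detectable at this depth, and its levels in the 12 classes had overlapping intervals between all neighbours in both libraries. The 2.62 and 3.08 Mirg UMIs for each 100 of Meg3 in dental mesenchyme rest on those counts.

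Of the protein-coding neighbours in the Dlk1-Dio3 domain, Dlk1, a membrane protein of the Notch family of ligands, had 32.5 and 35.3 CPM in dental mesenchyme (-0.12, -0.31 to 0.07). Dio3, which inactivates thyroid hormone, had 41.7 and 18.3 CPM (1.19, 0.96 to 1.41). Rtl1 had 2 and 1 UMIs.

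H19 was concentrated in few cells. It had 191 and 292 CPM in epithelium, 199 and 215 CPM in cycling cells and 148 and 184 CPM in dental mesenchyme. The 5% of mesenchymal cells richest in H19 held 77.4% and 72.1% of its UMIs, and 533 of 4108 and 626 of 3928 cells had any. For Malat1 the richest 5% held 19.2% and 16.2%, and for Meg3 37.4% and 32.8%.

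Most mesenchymal H19 UMIs lay in the Clec3b state (772 of 1989 and 1294 of 2367) and the Pcp4 state (632 and 507). The fibroblast state led by Clec3b, Mfap5 and Cd34 had 677 and 592 CPM, and the Pcp4 state, led also by Mmp13 and Sfrp2, had 464 and 429 CPM. The papilla state led by Cntn6 (165 and 96.7 CPM) and the ligament state led by Itgbl1 (82.3 and 118 CPM) followed, and no other state reached 50 CPM. In the epithelium H19 belonged to the Krt15 cluster, with 556 and 488 CPM, and hardly to the Amelx cluster (13.2 and 31.5 CPM), the reverse of Neat1. In the endothelium it belonged to the cluster led by Ccl21a, Lyve1 and Prox1, genes of lymphatic vessels, with 279 and 322 CPM against 31.5 and 54.4 CPM in the cluster led by Emcn and Kdr.

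The class ratios of H19 differed from those within clusters. The mesenchymal log2 ratio was -0.31 (-0.40 to -0.22), but 0.19 (0.06 to 0.32) in the Clec3b state, 0.11 (-0.06 to 0.29) in the Pcp4 state and 0.77 (0.42 to 1.12) in the Cntn6 state, and it was 0.12 with subclusters given equal weights in the 2 libraries. Equal weights of the mitochondrial bins took it the other way, to -2.02, and to -1.03 without the lowest bin, which held 7 Lipo-PBS cells. The Clec3b state had 455 cells from Lipo-Clo against 806 from Lipo-PBS. The epithelial ratio was -0.62 and that of the Krt15 cluster 0.19. The endothelial ratio was -1.45, with 30 Lipo-Clo and 145 Lipo-PBS cells in the lymphatic cluster, whose own ratio was -0.21 (-0.80 to 0.34). The Dspp state had 11.8 and 48.5 CPM (-2.04, -3.32 to -0.89) on 9 and 25 UMIs.

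Among blood classes H19 rested on few UMIs, 25 and 50 in monocytes (-2.52) and 18 and 8 in macrophages (1.88, 0.60 to 3.29). The share of neutrophils with an H19 UMI after thinning was 1.51% and 3.40%, against 7.51% and 9.46% in mesenchyme. After thinning, 3 of 110 and 1 of 158 macrophages had an H19 UMI, which leaves the macrophage difference resting on a handful of cells. Igf2 had 19.7 and 26.7 CPM in dental mesenchyme (-0.44, -0.67 to -0.20).

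Kcnq1ot1 had its highest class level in dental mesenchyme, 51.7 CPM (48.0 to 55.7) and 66.6 CPM, though all neighbours in the order of classes had overlapping intervals. The states spread more. The papilla state led by Ctnnd2 had 164 and 187 CPM, the Cntn6 state 84.6 and 111 CPM and the Dio2 follicle state 22.0 and 21.4 CPM. States outside the papilla also held it, with 46.0 and 124 CPM in the Ccl19 fibroblast state and 62.4 and 101 CPM in the Pcp4 state. In Lipo-PBS the Ccl19 state thus stood above the Cntn6 state. The Ctnnd2 state was highest for both Malat1 and Kcnq1ot1. Over the 24 sums its correlation with Malat1 was 0.80.

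In dental mesenchyme the Kcnq1ot1 log2 ratio was -0.36 (-0.51 to -0.22), and it turned to 0.48 with equal weights of the mitochondrial bins (0.36 without the lowest bin). Of 10 classes with at least 20 UMIs, 9 were lower and 6 had an interval below 0, with epithelium at 28.6 and 55.9 CPM (-0.97) and B cells at 15.9 and 47.1 CPM (-1.56). Endothelium had 50.1 and 31.9 CPM (0.65, -0.07 to 1.36). The host gene Kcnq1 had 4 and 8 mesenchymal UMIs. Cdkn1c, the growth inhibitor that Kcnq1ot1 silences on the paternal chromosome, had 208 and 192 CPM (0.12, 0.04 to 0.19).

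Of the 7 members, 2 were at least 1.5-fold lower in Lipo-Clo mesenchyme (Malat1 and Neat1) and none at least 1.5-fold higher, beside 9.37% and 5.52% of all genes tested. Malat1, with a fold of 1.51, lay at the limit. Other lists were read in the same cells, beside a median log2 ratio of -0.02 over all genes tested. Of 9 measured protein-coding neighbours of the imprinted members 5 were lower and 4 higher, with a median of -0.03. Nap1l4 had -0.28, Tssc4 0.26, Osbpl5 -0.03, Phlda2 0.16 (14 and 12 UMIs) and Slc22a18 -0.70 (9 and 14 UMIs).

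Of 30 other imprinted genes 18 were lower and 12 higher (median -0.13). Dcn, a matrix proteoglycan, was at -0.76, the G protein gene Gnas at -0.18, the growth inhibitor Grb10 at -0.13 and Mest at 0.39. Of 20 other nuclear long noncoding RNAs 13 were lower and 7 higher (median -0.15), with Airn at -0.30, Dleu2 at -0.28, Mir99ahg at -0.20 and Xist, which coats the inactive X chromosome, at 0.04. Of these named genes only Dcn was past 1.5-fold. Over the whole list of 20 nuclear long noncoding RNAs, 2 were at least 1.5-fold lower and 1 at least 1.5-fold higher, beside 9.37% and 5.52% of all genes tested.

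Rian, a member that carries small nucleolar RNAs, was at -0.27. The 17 other measured long noncoding RNAs listed as hosts of small nucleolar RNAs were all higher in Lipo-Clo by less than 1.5-fold (median 0.30). Among them Snhg1 was at 0.43, Snhg3 at 0.31, Gas5 at 0.30 and Snhg18 at 0.15. Beside them 84 of 85 cytosolic ribosomal protein genes were higher (median 0.31), and these made up 14.2% and 11.6% of mesenchymal UMIs. In epithelium both lists leaned the other way, with 11 of 17 hosts (median -0.15) and 82 of 85 ribosomal protein genes (median -0.26) lower.

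In dental mesenchyme, RNAs coding for proteins that share nuclear bodies with Malat1 and Neat1 had median ratios near 0. Of 21 paraspeckle protein genes 14 were higher and 7 lower (median 0.08), with Sfpq at -0.02, Hnrnpk at 0.02 and Hnrnpa1 at 0.39, none past 1.5-fold. Of 39 speckle and splicing genes 22 were lower and 17 higher (median -0.03), with Ddx5 and Rbm39 at 0.02, Son at -0.08 and the splicing factor Srsf3 at 0.34, again none past 1.5-fold. By class, their median went from -0.46 in neutrophils to 0.01 in endothelium, beside -0.32 and 0.03 over all genes tested. It was -0.37 in T or NK cells and -0.26 in macrophages, beside 0.03 and -0.05. In dental mesenchyme, genes known to respond to tissue dissociation had 17 of 22 lower (median -0.16), with Jun at -0.42, Fos at -0.34, Egr1 at -0.12 and Jund at -0.08. The mitochondrial mRNAs had a median of -2.05, with mt-Co1 at -2.33, mt-Co2 at -2.05, mt-Cytb at -1.84 and mt-Atp6 at -1.72.

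By the profile over the 24 sums, the genes most like Malat1 were Strn3 (0.95), Tmtc1 (0.91) and Pls3 (0.91), and those most like Neat1 were the epithelial genes Krt17 (0.90) and Col17a1 (0.88) and Idh1 (0.87). For H19 they were Myo1d (0.90), Wls (0.89) and Ptk7 (0.88), and for Kcnq1ot1 Srek1 (0.88), Skic3 (0.88) and Clock (0.87).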

How the data were processed

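The authors deposited raw UMI counts per gene and called cell, 1 matrix per library, neither normalized nor filtered further. The matrix headers name Cell Ranger 8.0.0, whereas the submitters' processing notes name Cell Ranger 3.1.0 and Seurat 3.1.1 with GRCm39 (mm39). Whether intronic reads were counted, the annotation and the strand setting are not given in the sources used here, and for unspliced or nuclear RNA they set how many reads count.

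Barcodes needed 200 genes and no more than 20% mitochondrial UMIs to be kept. Also left out were the highest Scrublet scores up to 0.8% per 1000 cells (632 and 633 cells), because its automatic call marked 0 and 1. Counts were clustered jointly in scanpy 1.11.5 (2000 variable genes, 30 components, 20 neighbours, Leiden resolution 1, leidenalg 0.10.2, no batch correction, the 7 members left out), and mesenchyme again (20 components, resolution 0.6). A cluster took a name from at least 3 markers that exceeded the median over clusters 2-fold and were found in 10% of its cells. Clusters that could not be named (55 and 659 cells) were left out of class comparisons. In dental mesenchyme the largest cluster was led by Tnn in Lipo-Clo (949 cells) and by Clec3b in Lipo-PBS (1065 cells).

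UMIs were summed per library and class. Ratios carry exact conditional intervals for a ratio of 2 Poisson counts, shares exact Clopper-Pearson intervals, all at 95%. With 1 library per condition no p-value is given, and a gene was counted as called past 1.5-fold with at least 20 UMIs over both libraries. Interval code was tested on simulated data. Genes were named by rule: the members, their domain neighbours, the 4 genes of each other list with the most mesenchymal UMIs, and the 3 genes most like each member with at least 1000 UMIs by Pearson correlation of log2(CPM + 1) among genes with at least 500 UMIs. A gene that the rule named is not reported here. Col1a1 and S100a8, and the leading genes of clusters, were added after their values were seen. The members and lists were chosen with earlier results of these data known. Alternatives used edgeR 4.0.16, DESeq2 1.42.0 and other cell filters, clusterings and weightings, and their effect is given at the end. Positions and transcripts are GENCODE M21 on GRCm38, joined by identifier.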

Additional observations from a re-analysis of the deposited data

Results flagged for a closer look

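In 6 instances a member had ratios of opposite sign in different cells of the same pair of libraries. The differences between these ratios were not tested, since each condition had 1 library, and each is the highest or lowest log2 ratio of its member among the classes alone, or among the mesenchymal states alone, with at least 20 UMIs and an interval that leaves out 0.

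Malat1 was 0.31 in the Meox2 fibroblast state (14 and 26 cells) and -1.16 in the Ccl19 fibroblast state. Neat1 was 0.63 in epithelium and -1.0 in B cells, the latter on 41 and 37 UMIs. Within epithelium, as given above, Neat1 was higher only in the Amelx cluster and lower in the Krt15 and Dsc3 clusters. The Neat1-rich Amelx cluster held a larger part of the Lipo-Clo epithelial cells. Meg3 was 0.78 in the Dio2 follicle state and -0.47 in the Pappa2 ligament state, and Rian was 0.52 and -0.67 in the same states. H19 was 1.88 in macrophages and -2.52 in monocytes, with at most 50 UMIs in any of these sums. Within dental mesenchyme H19 was 0.77 in the Cntn6 papilla state and -2.04 in the Dspp state.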

How the results depend on the processing

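No paired analysis was possible because the design holds 1 library per treatment. Against a main log2 ratio of -0.60, Malat1 in dental mesenchyme was -0.62 with doublets kept, -0.58 under a stricter cell filter (500 genes, no more than 10% mitochondrial UMIs), -0.57 with each library clustered on its own, -0.58 with TMM and with DESeq2 size factors, -0.62 when ribosomal protein, haemoglobin and mitochondrial genes were taken out of the totals, and -0.61 when the members were. It was -0.45 in cells thinned to 1000 UMIs, -0.32 as a mean over cells and -0.66 with the mixture of subclusters held equal. With the mixture of bins of UMIs per cell held equal it stayed at -0.60. With the mixture of mitochondrial bins held equal it turned to 0.32, and to 0.35 without the lowest bin, which held 7 Lipo-PBS cells (an alternative chosen after seeing the data). The same weightings turned Neat1 to 0.41 and 0.31 and Kcnq1ot1 to 0.48 and 0.36, and the subcluster mixture turned H19 to 0.12. The cause of these turns was not tested. Members at least 1.5-fold lower numbered 2 (Malat1 and Neat1). They numbered 1 (Neat1) under the stricter cell filter, separate clustering, TMM, DESeq2 size factors, the mean over cells and thinning, 1 under both mitochondrial weightings, where it was H19 (-2.02 and -1.03), and 0 at a limit of 2-fold. Members at least 1.5-fold higher numbered 0, and 1 (Meg3) under mitochondrial weighting without the lowest bin. Malat1 was lower in 12 of 12 classes, in 11 with TMM, DESeq2 size factors or thinning, and in 6 of 10 with mitochondrial weighting within classes (chosen after seeing the data), where dental mesenchyme (0.35), endothelium (0.37), epithelium (0.38) and perivascular cells (0.28) were higher. No monocyte class with cells of both libraries was named under the stricter cell filter, at Leiden resolution 0.5 or 2, or with separate clustering. No such cycling class was named under the stricter filter, at resolution 0.5, with the members among the variable genes, or with separate clustering. With the UMIs of both libraries pooled, the class highest for each member was kept under all cell and clustering settings but 1. The exception was that cycling cells led for Kcnq1ot1 with each library clustered on its own, where this class was named in only 1 library. In the main setting, Lipo-Clo alone had H19 highest in cycling cells (199 CPM) and Mirg in perivascular cells (9.08 CPM), unlike the pooled order, where epithelium and dental mesenchyme led. Depth limits Mirg everywhere and the members other than Malat1 in the small blood classes, where under 50 UMIs lie behind many values.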
